A study of Mus musculus with 9 samples.

Results

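Open chromatin was followed around 35 mouse genes of blood progenitors, a group often described as targets of the transcription factor MYB, among 21883 protein-coding genes. The members were a fixed list of symbols, all 35 of which were found in the RefSeq gene table. The cells were E14 embryonic stem cells (the TOT2N variant), and they fell into 3 lines with 3 ATAC-seq libraries each. One line carried a stably integrated TetR-MYBTA construct, one carried the TetR construct, and WT was the unmodified line. TetR is the bacterial tetracycline repressor, a DNA-binding protein, and the labels do not spell out which stretch of MYB "MYBTA" holds, what promoter drives either construct, or whether a line is 1 clone. Neither do they call the libraries of a line separate cultures, and p-values here therefore reflect library-to-library spread, part or all of which may be technical. The question put to these genes was whether the TetR-MYBTA libraries had open regions here that the TetR and WT libraries lacked.

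MYB binds DNA through repeats near its amino end, at sites with the core AACNG (N is any base), and activates transcription through a separate part that recruits the coactivators CBP and p300. In blood stem and progenitor cells it sustains proliferation and holds back differentiation. ATAC-seq marks DNA that the Tn5 transposase can enter, which in most cells includes active promoters and enhancers. Embryonic stem cells are not blood cells, and many blood genes are closed or held by Polycomb proteins in them.

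Each deposited list held peaks as positions without heights, so a region is counted here as present or absent. The lists ranged from 45136 to 70230 peaks and the libraries from 16.4 to 23.0 M tags, of which 5.48 to 9.78% fell in peaks. TetR-MYBTA replicate 3 had the shortest list and the lowest share of tags in peaks, and the other 8 lists held 56612 to 70230 peaks. Shorter lists reach less far down, so fewer peaks in a library can mean a shorter list as well as closed chromatin. In these bulk libraries, fewer cells with an open region and less open chromatin per cell cannot be told apart. Of 8 embryonic stem cell markers, Sox2, Klf4 and Tfcp2l1 had a peak within 1 kb of a gene end in all 9 libraries, whereas Esrrb and Zfp42 had none in any library, and the other 3 had one in some libraries. These were Pou5f1, with 1 TetR-MYBTA, 1 TetR and 0 WT libraries, Nanog, with 0 TetR-MYBTA, 3 TetR and 1 WT libraries, and Tdgf1, with 0 TetR-MYBTA, 1 TetR and 1 WT libraries. Of 8 blood cell markers, chosen to show other cell types, Vav1 had such a peak in 1 TetR-MYBTA library, and the other 7 had none in any library.

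Sequences at transcription starts were taken from RefSeq (build GRCm38.p6, the assembly also called mm10), 250 bases before to 50 bases after a start, for the 27 members that had an entry. They are shown 5′ to 3′ on the strand of the gene for the starts that the results turn on: both starts of Mecom and of Runx1, because the 2 starts of each gene differed, the start of Flt3, beside a region that no TetR-MYBTA library had, and a start of Kit that was open in every library. Capitals mark AACNG read on either strand.
Mecom internal start, chr3:30013155-30013454, minus strand: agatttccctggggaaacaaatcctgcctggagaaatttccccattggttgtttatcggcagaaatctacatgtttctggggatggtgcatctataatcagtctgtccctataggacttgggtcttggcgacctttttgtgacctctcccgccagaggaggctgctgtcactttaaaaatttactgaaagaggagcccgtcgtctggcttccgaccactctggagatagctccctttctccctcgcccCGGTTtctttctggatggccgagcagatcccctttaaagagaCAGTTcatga
Mecom upstream start, chr3:30509710-30510009, minus strand: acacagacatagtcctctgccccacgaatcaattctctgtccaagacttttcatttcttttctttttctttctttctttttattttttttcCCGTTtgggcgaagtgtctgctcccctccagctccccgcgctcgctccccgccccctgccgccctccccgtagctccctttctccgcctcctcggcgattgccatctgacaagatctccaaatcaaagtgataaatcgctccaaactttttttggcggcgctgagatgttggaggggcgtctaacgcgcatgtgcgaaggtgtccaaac
Runx1 internal start, chr16:92697280-92697579, minus strand: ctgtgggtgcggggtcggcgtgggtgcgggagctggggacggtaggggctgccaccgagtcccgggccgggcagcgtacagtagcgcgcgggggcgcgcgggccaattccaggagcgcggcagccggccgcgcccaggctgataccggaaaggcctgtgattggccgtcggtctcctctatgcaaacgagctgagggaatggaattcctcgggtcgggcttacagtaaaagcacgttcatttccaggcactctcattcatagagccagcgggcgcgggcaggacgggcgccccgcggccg
Runx1 upstream start, chr16:92826025-92826324, minus strand: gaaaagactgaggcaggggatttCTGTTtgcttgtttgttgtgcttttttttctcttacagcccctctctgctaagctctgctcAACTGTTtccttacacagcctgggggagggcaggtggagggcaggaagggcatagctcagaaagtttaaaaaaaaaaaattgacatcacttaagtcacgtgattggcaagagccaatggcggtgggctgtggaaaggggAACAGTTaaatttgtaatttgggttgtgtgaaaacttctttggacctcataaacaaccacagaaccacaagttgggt
Flt3 start, chr5:147400440-147400739, minus strand: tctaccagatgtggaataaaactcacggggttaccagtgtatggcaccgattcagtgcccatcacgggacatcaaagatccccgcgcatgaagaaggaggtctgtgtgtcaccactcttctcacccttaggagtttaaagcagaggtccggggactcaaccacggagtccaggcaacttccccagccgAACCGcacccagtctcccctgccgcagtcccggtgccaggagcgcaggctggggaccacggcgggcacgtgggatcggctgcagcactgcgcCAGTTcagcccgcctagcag
Kit start, chr5:75574737-75575036, plus strand: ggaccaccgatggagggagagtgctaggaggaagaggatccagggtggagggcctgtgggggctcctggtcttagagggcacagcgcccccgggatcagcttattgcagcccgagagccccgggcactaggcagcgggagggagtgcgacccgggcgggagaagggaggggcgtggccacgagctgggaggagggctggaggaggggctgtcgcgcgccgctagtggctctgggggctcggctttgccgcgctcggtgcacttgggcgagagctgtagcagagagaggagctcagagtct

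The internal start of Mecom was the 1 member window of 36 that had a peak in no TetR-MYBTA library, in 3 TetR libraries and in 3 WT libraries. Over all 21262 such windows in the genome 65 had that pattern, or 0.306%. When all lists were shortened to the same 45136 rows, the region at the internal start of Mecom no longer showed it. The reverse pattern, a peak in every TetR-MYBTA library and no other, was found in 5 windows of the genome and 0 of the members. Mecom encodes a zinc finger regulator of blood stem cells, and the shorter product made from internal starts is known as EVI1. Its upstream start window had no peak in any library. A region inside the gene, at chr3:30508171-30508635 and 1.124 kb from that end of Mecom, had a peak in all 9 libraries. Both Mecom windows hold AACNG, with 2 matches at the internal start and 1 at the upstream start.

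Runx1, which encodes the DNA-binding core-binding factor needed for blood formation in the embryo, had a peak at its internal start in all 9 libraries and none at its upstream start. The internal window has a CpG ratio (observed over expected CpG) of 1.01, which is typical of a CpG island, and holds no AACNG. The upstream window has a CpG ratio of 0.137 and holds 5. The Kit window, with no AACNG, had a peak in all 9 libraries, and Kit encodes the receptor for stem cell factor. The Flt3 window, with 2 matches, had a peak in 0 TetR-MYBTA, 0 TetR and 1 WT libraries. The open region described further on lies mostly inside the gene, past this window.

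AACNG was about as frequent at the members as elsewhere. It was present in 29 of 36 member windows (80.6%) and in 79.1% of all 21262 windows, and AACTG, one of its 4 forms, in 16 member windows (44.4%) and 41.7% of all windows. A motif match is a description of the letters and not a binding site. Member windows had a peak in all 9 libraries in 6 cases (16.7%), against 29.7% of all windows, and in no library in 24 cases (66.7%), against 48.6%. Among windows with a CpG ratio of at least 0.6, 10 of 19 member windows had no peak in any library (52.6%), against 18.96% of all windows. Such CpG-rich starts without a peak were both of Gata2, those of Zfpm1, Cdk6 and Gata3, and one each of Tal1, Erg, Mecom, Gfi1 and Ikzf1. The absence covers only these short windows. Tal1, Erg, Gata3 and Ikzf1 had a peak within 1 kb of a gene end in all 9 libraries. Gata2 is a zinc finger factor of blood stem cells, Zfpm1 (FOG1) is the partner of GATA factors, Cdk6 is a cell cycle kinase and Ikzf1 (IKAROS) is a zinc finger factor of lymphoid cells.

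Peaks near the gene ends, taken without regard to strand, also divided the members, though not along the same lines for every gene. Within 1 kb of either end, 13 members had a peak in all 9 libraries (37.1%, against 44.2% of all genes), 15 had none in any (42.9%, against 37.5%) and 7 had one in some libraries (20%, against 18.3%). The 13 open in every library were the transcription factor genes Tal1, Erg, Meis1, Hhex, Etv6, Spi1, Cebpa, Ikzf1 and Gata3, the surface protein genes Kit and Cd34, and Myc and Bcl2. The 15 without a peak included Gata2, Lmo2, Lyl1, Fli1 and Runx1. At Runx1 the annotated outer ends had no peak although its internal start had one in every library. The neutrophil granule genes had few peaks at their ends: Mpo (myeloperoxidase) and Elane (neutrophil elastase) had 0 peaks at their ends in all libraries, and Prtn3 (proteinase 3) had a peak in 1 TetR-MYBTA, 2 TetR and 1 WT libraries.

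**Figure D1:**
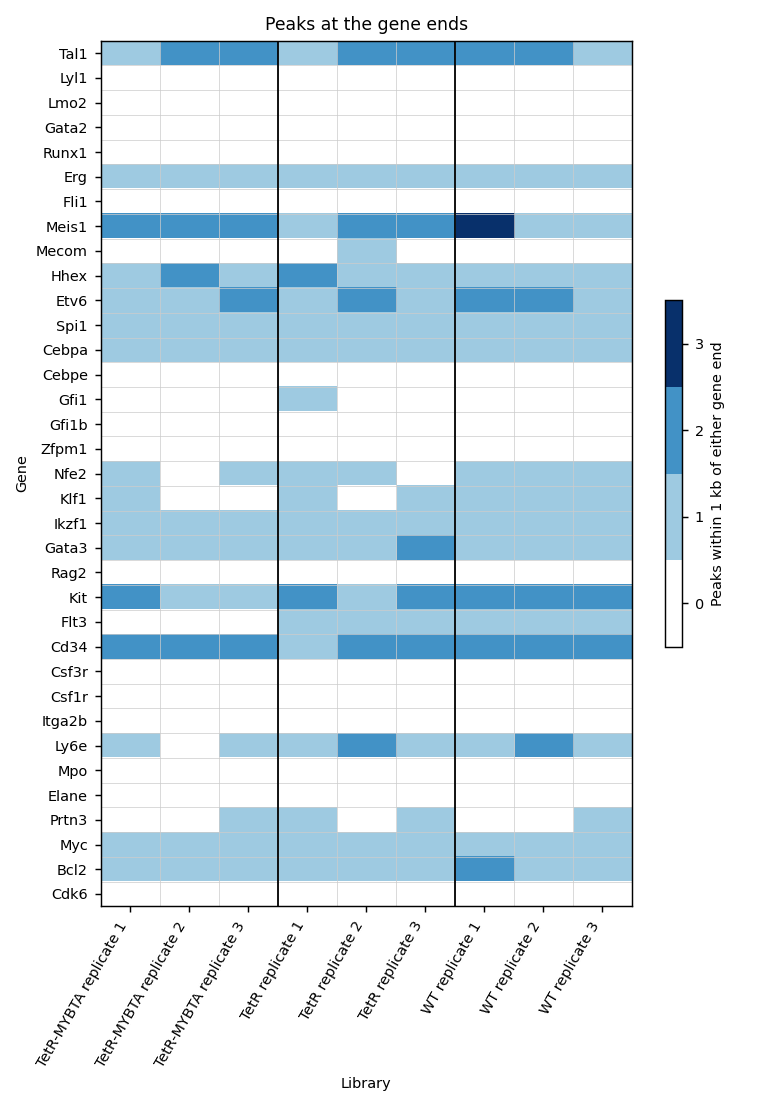
Peaks within 1 kb of either gene end (colour, number of peaks) for the 35 members (rows) in each of the 9 libraries (columns; TetR-MYBTA, TetR and WT from left to right). Rows are filled across all 9 columns for 13 members and empty for 15, and Flt3 is empty in the 3 TetR-MYBTA columns and filled in the other 6.

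No member gained a gene-end peak in TetR-MYBTA, meaning a peak in all 3 of its libraries and in none of the other 6. Over all genes 16 did so (0.0731%). The reverse, a peak in none of the 3 TetR-MYBTA libraries and in all other 6, was seen for 1 member, Flt3, and for 122 genes in all (0.558%). Flt3 encodes a receptor tyrosine kinase of early lymphoid and myeloid progenitors. When all lists were shortened to the same 45136 rows, Flt3 no longer showed this difference, and 0.411% of all genes did.

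Counted within 50 kb of the gene, peaks were fewer in TetR-MYBTA around most members, as they were around most genes at large. The TetR-MYBTA libraries had 222, 210 and 169 peaks in the 34 separate windows (Elane and Prtn3 overlap), the TetR libraries 266, 258 and 240, and the WT libraries 219, 237 and 226. As a share of a library's list the TetR-MYBTA libraries averaged 0.372 ± 0.00274%, the TetR libraries 0.393 ± 0.0149% and the WT libraries 0.381 ± 0.00572% (SD, n = 3 each). The ratio of TetR-MYBTA to the other 6 libraries was 0.831 for the number of peaks near members, 0.864 for the length of the lists and 0.961 for the share. The share ratio was 0.901 for the 30 members outside the chromosome stretches described below, and 0.917 within 10 kb of all members. The 3 TetR-MYBTA shares lay below all other 6. No p is given for this sum, because the members were chosen with results of these data known.

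Per gene, 32 members had a lower mean in TetR-MYBTA than in the other 6 libraries, and 3 had a higher one, Ikzf1, Mpo and Bcl2. The median log2 ratio of mean peaks (plus 0.5) was -0.30 over the members and -0.26 over all 20439 genes with a peak in their window. Per 10000 peaks of the library the medians were -0.13 and -0.07. Among all genes 15384 had a lower mean and 3914 a higher one.

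**Figure D2:**
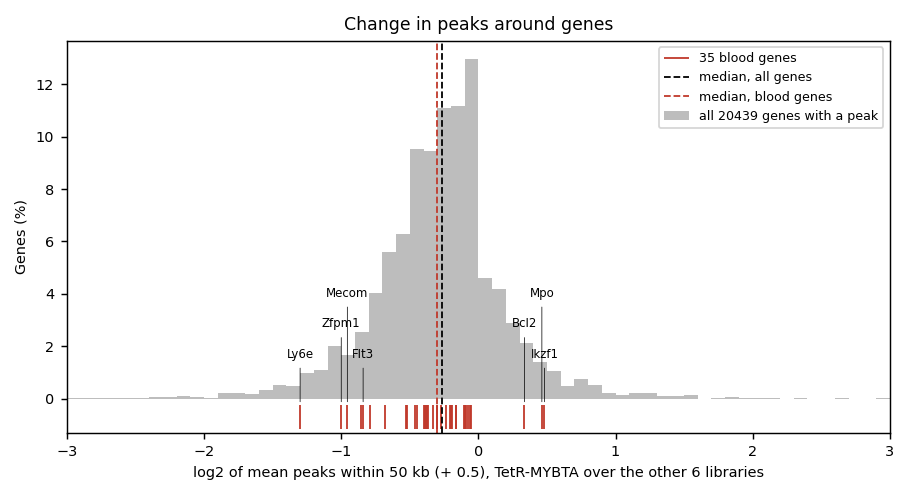
Percent of all 20439 genes (grey bars) by the log2 ratio of mean peaks within 50 kb (plus 0.5), TetR-MYBTA over the other 6 libraries, with the 35 members as red ticks below. The median of the members (-0.30, red dashes) lies beside that of all genes (-0.26, black dashes), and Ikzf1, Mpo and Bcl2 are the 3 members right of 0.

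A member was called where all 3 TetR-MYBTA libraries lay beyond all other 6. More peaks were found for 1 of 35 members, Ikzf1 (2.86%), against 0.832% of all genes, and fewer for 3 members, Lmo2, Mecom and Ly6e (8.57%), against 11.7% of all genes. The two-sided exact permutation test of 3 against 6 libraries cannot go below 0.0119, which is the p of these 4 genes. In the upper 50% of each list none of the 4 was called, and Bcl2 (more, 2.94%, against 1.23% of all genes) and Elane and Prtn3 (fewer, 5.88%, against 9.06%) were called instead. Adjusted over all genes by Benjamini-Hochberg, the lowest exact p was 0.124, so 0 genes passed. At an unadjusted exact p under 0.05 there were 7 members (20%), against 20.7% of all genes. With limma on log2(peaks per 10000 plus 0.5), 3 members were higher (4.5% of all genes) and 3 were lower (11.9% of all genes).

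Of the 11 stem and progenitor transcription factors, Mecom and Lmo2 were called with fewer peaks. Around Mecom the TetR-MYBTA libraries had 6, 5 and 4 peaks, the TetR libraries 10, 12 and 10, and the WT libraries 9, 12 and 8. Every TetR-MYBTA library thus lay below every other library, with a mean of 5 ± 1 against 10.17 ± 1.602 (SD, n = 3 and 6), a ratio of 0.492. By limma Mecom fell by 0.58 ± 0.105 on the log2 scale (SE, adjusted p = 0.0024, and 0.0020 to 0.0175 when any 1 library was left out). With lists of equal length, TetR-MYBTA and the other libraries overlapped at Mecom.

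Lmo2, the LIM-domain bridge between TAL1 and GATA factors, had 4, 3 and 3 peaks in TetR-MYBTA, 5, 5 and 5 in TetR, and 5, 5 and 5 in WT. The groups did not overlap, but limma did not pass the threshold (adjusted p = 0.144, and 0.141 to 0.382 when any 1 library was left out). The region missing in all TetR-MYBTA libraries lay at an end of the neighbouring gene Fbxo3, an F-box protein gene, and not at Lmo2.

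Runx1 had 5, 4 and 4 peaks in TetR-MYBTA, 9, 5 and 7 in TetR, and 6, 6 and 4 in WT. TetR-MYBTA and WT overlapped at Runx1. Hhex, a homeobox gene of blood and endothelial precursors, had 2, 3 and 1 peaks in TetR-MYBTA, 8, 4 and 4 in TetR, and 2, 3 and 2 in WT, so TetR was the line apart. Gata2 gave a like picture, with 3, 2 and 2 peaks in TetR-MYBTA, 6, 5 and 3 in TetR, and 1, 2 and 2 in WT. Its TetR-MYBTA and TetR libraries overlapped at 3 peaks.

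Tal1, a helix-loop-helix factor that specifies blood, had 9, 12 and 8 peaks in TetR-MYBTA, 12, 14 and 11 in TetR, and 8, 11 and 11 in WT. Meis1, a homeobox partner of HOX proteins, had 9, 10 and 7 in TetR-MYBTA, 8, 11 and 11 in TetR, and 12, 5 and 7 in WT. The lines overlapped at both genes. Across all 11 members of this role the counts ran from 1 to 23 peaks per library, and all 11 had a lower mean in TetR-MYBTA. Besides those named, the role holds Lyl1, Erg, Fli1 and Etv6. Etv6, an ETS factor of blood stem cells named here after its values were seen, had the most peaks of any member, with 16, 19 and 13 in the TetR-MYBTA libraries, 23, 22 and 19 in the TetR libraries, and 19, 18 and 18 in the WT libraries, where TetR-MYBTA replicate 2 overlapped both other lines.

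Among 4 myeloid factors none was called. Spi1 (PU.1), which directs myeloid fate, had 10, 9 and 5 peaks in TetR-MYBTA, 10, 9 and 9 in TetR, and 8, 11 and 10 in WT, and the lines overlapped. Cebpa, Cebpe and Gfi1, regulators of granulocyte development, had 0 to 5 peaks per library. Of the erythroid and megakaryocyte regulators Gfi1b, Zfpm1, Nfe2 and Klf1, with 0 to 9 peaks per library, none was called against the other 6 libraries either.

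Ikzf1 was the 1 member with more peaks. It had 14, 12 and 13 peaks in TetR-MYBTA, 10, 9 and 8 in TetR, and 10, 9 and 9 in WT. Every TetR-MYBTA library lay above every other, with a mean of 13.0 ± 1.00 against 9.17 ± 0.753 (SD, n = 3 and 6), a ratio of 1.42. By limma Ikzf1 rose by 0.57 ± 0.098 on the log2 scale (SE, adjusted p = 0.0017, and 0.0023 to 0.0131 when any 1 library was left out). Gata3, the zinc finger factor of T cells, and Rag2, a subunit of the recombinase of antigen receptor genes, had 4 to 9 peaks per library and were not called against the other 6.

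The surface proteins gave the third gene with fewer peaks. Ly6e, a small membrane-anchored protein of the LY6 family, had 2, 1 and 2 peaks in TetR-MYBTA, 5, 5 and 4 in TetR, and 4, 6 and 5 in WT. The groups did not overlap, with means of 1.67 ± 0.577 and 4.83 ± 0.753 (SD, n = 3 and 6), and by limma Ly6e fell by 0.65 ± 0.119 on the log2 scale (SE, adjusted p = 0.0025, and 0.0037 to 0.0148 when any 1 library was left out). Ly6e lies in a cluster of related genes, where reads from near-identical copies may not be placed with certainty.

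Flt3 had 9, 6 and 5 peaks in TetR-MYBTA, 14, 12 and 12 in TetR, and 9, 14 and 13 in WT. The highest TetR-MYBTA library and the lowest WT library met at 9 peaks, so the counts were not called. By limma Flt3 fell by 0.53 ± 0.111 on the log2 scale (SE, adjusted p = 0.0054, and 0.0033 to 0.0409 when any 1 library was left out). Several regions of its window lie nearer to Cdx2, a homeobox gene of trophoblast and gut, than to Flt3.

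Kit had 8, 6 and 4 peaks in TetR-MYBTA, 9, 7 and 8 in TetR, and 7, 6 and 8 in WT, which overlapped. The other surface proteins were Cd34 (a sialomucin of progenitors), Csf3r and Csf1r (receptors for the granulocyte and macrophage growth factors) and Itga2b (a platelet integrin). These 4 were not called.

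Of the granule enzymes, Mpo had 9, 9 and 6 peaks in TetR-MYBTA, 6, 4 and 4 in TetR, and 7, 7 and 6 in WT. TetR-MYBTA and WT overlapped in these counts. Scaled by list length Mpo rose by 0.50 ± 0.102 on the log2 scale by limma (SE, adjusted p = 0.0046, and 0.0054 to 0.0241 when any 1 library was left out). Elane and Prtn3, neighbours that share most of their windows, had 4 to 8 peaks per library and were not called.

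Of the growth and survival genes, Bcl2, which protects cells from apoptosis, had 12, 12 and 13 peaks in TetR-MYBTA, 12, 9 and 8 in TetR, and 10, 9 and 10 in WT. TetR-MYBTA lay above all WT libraries but met TetR replicate 1 at 12. By limma Bcl2 rose by 0.46 ± 0.110 on the log2 scale (SE, adjusted p = 0.0114), and the call was lost without TetR-MYBTA replicate 3 (range 0.0123 to 0.0692 over the 9 libraries left out in turn). Myc, a growth regulator, had 13, 8 and 6 peaks in TetR-MYBTA, 12, 10 and 11 in TetR, and 12, 11 and 10 in WT. TetR-MYBTA replicate 1 had the most peaks at Myc and replicates 2 and 3 the fewest. Cdk6 had 12 to 18 peaks per library and was not called against the other 6 libraries.

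**Figure D3:**
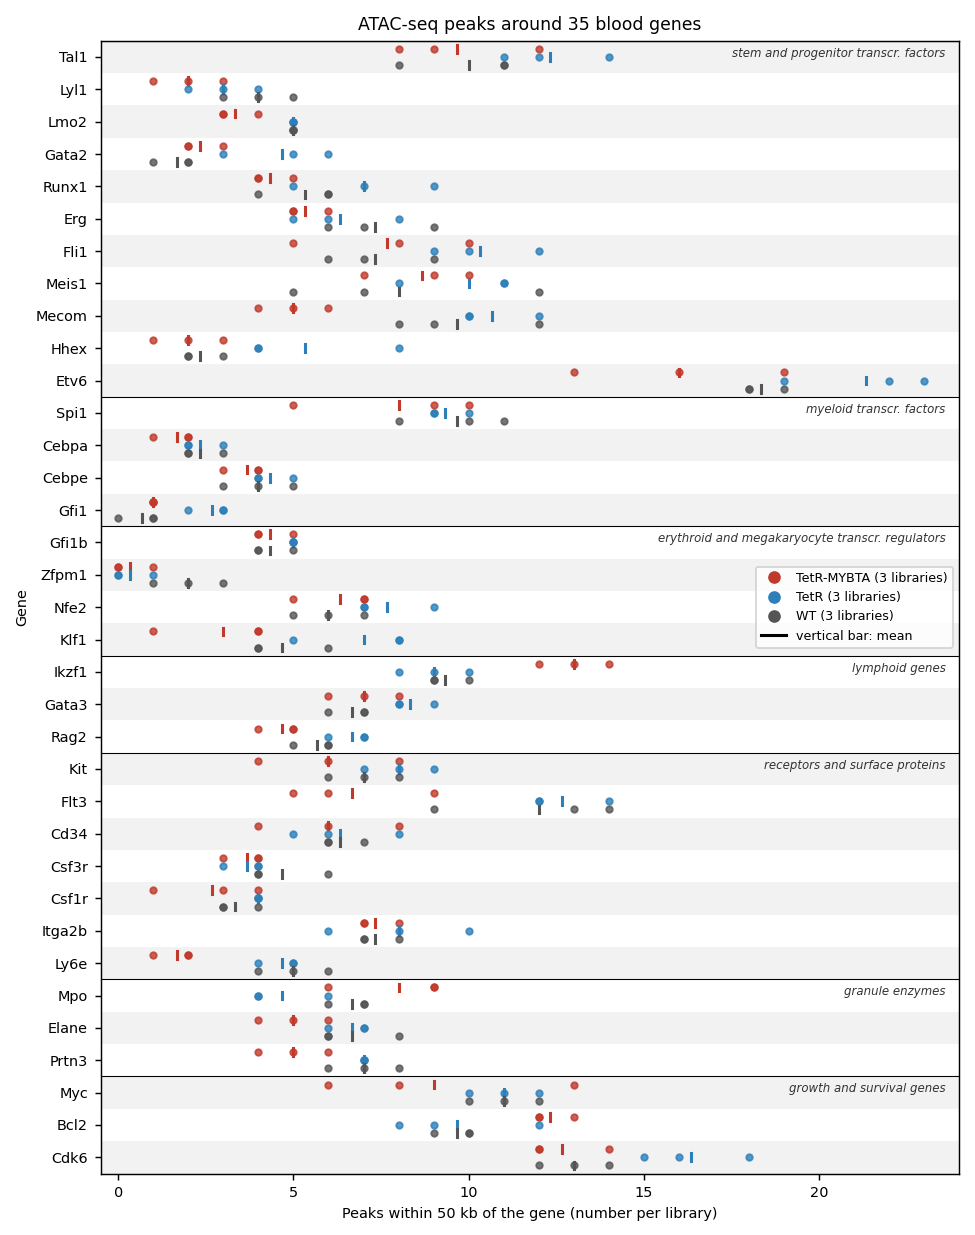
Peaks within 50 kb of each of the 35 members, by role (x axis, number of peaks; points, single libraries; bars, means of 3 libraries; TetR-MYBTA above TetR above WT in each row). The red points of Ikzf1 lie right of all others (12 to 14 peaks), and those of Lmo2, Mecom and Ly6e lie left of all others.

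Single regions answered the question most directly. Peaks of all libraries within 50 kb of the members merged into 425 regions, of 116362 in the genome. Openings seen in every TetR-MYBTA library and absent from each TetR and WT library made up 0 of the 425, a count that allows a share of up to 0.706%, and in 0.587% of all regions, so an absence of such openings near the members cannot be told from the genome's own low share at this number of regions. The reverse was found in 7 of 425 (1.65%), against 1.16% of all regions. A region missing in all TetR libraries or all WT libraries while present in the other 6 was found in 0 of 425 in either case, against 0.255% (TetR) and 0.151% (WT) of all regions. Read by gene, 0 members had a region private to TetR-MYBTA (against 2.84% of genes) and 5 had a missing one (14.3%, against 10.9%). TetR alone had 7 regions (1.65%, against 1.34%) and WT alone had 4 (0.941%, against 0.571%). A peak in all 9 libraries was found in 96 (22.6%, against 22.4%) and in exactly 1 library in 97 (22.8%, against 26%).

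The 0 rested on the requirement for every library. Without TetR replicate 1 there were 3 private regions (0.737%, against 0.762% of all regions), and without TetR-MYBTA replicate 2 there were 3 (0.719%, against 1.01%). There was 1 without TetR-MYBTA replicate 1 (0.241%, against 0.904%), WT replicate 2 (0.238%, against 0.752%) or WT replicate 3 (0.24%, against 0.698%). A peak in at least 2 TetR-MYBTA libraries and no other library was found in 4 regions (0.941%, against 2.27% of all regions). These lay in the windows of Ikzf1, with 2, Gata2 and Cdk6. The same looser rule gave 23 for TetR (5.41%, against 4.21%) and 7 for WT (1.65%, against 2.2%).

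Of the 7 regions missing in TetR-MYBTA, 3 lay inside Mecom. The first was at chr3:30012970-30013387 and overlapped the internal start printed above, and the others were at chr3:30282456-30282689 and chr3:30466091-30466546, with centres 227.2 and 43.4 kb inside the upstream start. One lay inside Runx1 at chr16:92685821-92686121, and one at the start of Flt3 at chr5:147400083-147400561. The last 2 fell in a member's window but at another gene: chr2:104027693-104028060 at an end of Fbxo3 near Lmo2, and chr19:37400985-37401237 inside Kif11, a mitotic kinesin gene near Hhex.

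Row order was taken as a rank, since the lists give no heights. With 100% for the first row, the median place of these regions was 41.8%, against 38.7% for all regions missing in TetR-MYBTA. It was 75.5% for the member regions found in all 9 libraries. That contrast says little, because regions picked for absence from some libraries tend to rank lower. With lists of equal length 1 of the 7 was still missing, the one at Fbxo3 (0.312% of 321 regions, against 0.821% of all), and 1 region near Ikzf1, at chr11:11650825-11651033, became private to TetR-MYBTA (0.312%, against 1.55% of all).

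**Figure D4:**
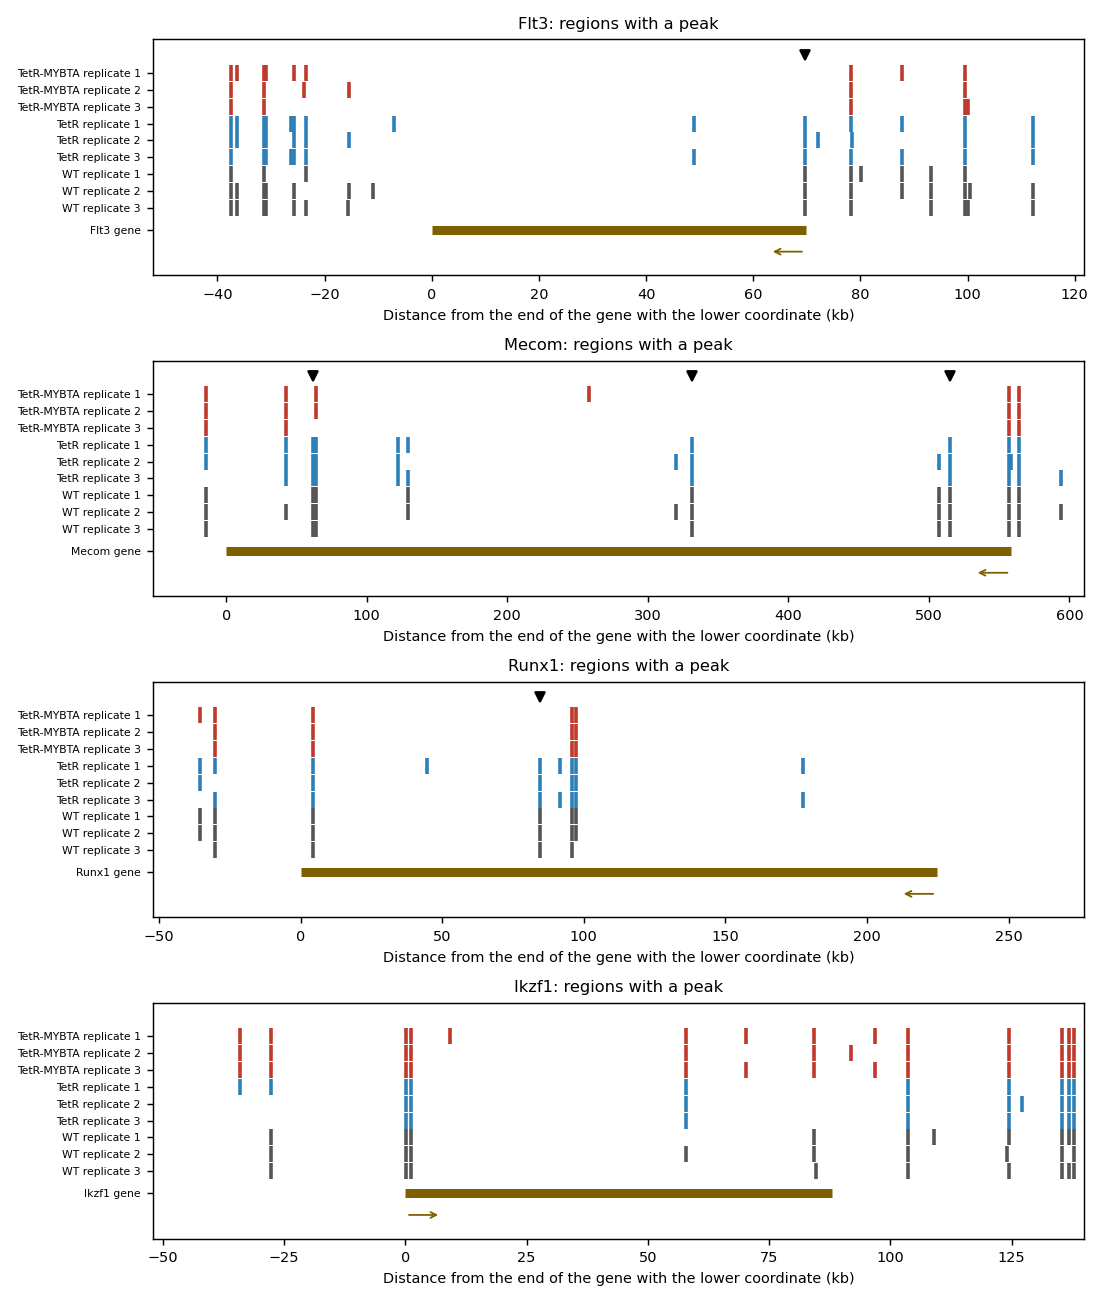
Regions with a peak (ticks) in each of the 9 libraries (rows) around Flt3, Mecom, Runx1 and Ikzf1; the x axis is the distance in kb from the gene end with the lower coordinate, the bar is the gene and the arrow its direction of transcription. Black triangles mark the 5 regions present in all TetR and WT libraries and in no TetR-MYBTA library: 1 at Flt3, 3 in Mecom and 1 in Runx1. Ikzf1 has none.

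No region around Ikzf1 was open in all 3 TetR-MYBTA libraries and in no other library. Of its 19 regions, 5 had a peak in all 9 libraries, and 4 had one in TetR-MYBTA libraries alone. Of these 4, 2 were found in replicates 1 and 3, 1 in replicate 1 and 1 in replicate 2. A region 34.0 kb before the gene, at chr11:11650825-11651039, was open in the 3 TetR-MYBTA libraries and in TetR replicate 1. Another, at chr11:11769174-11769423 inside the gene, had a peak in all 3 TetR-MYBTA libraries, no TetR library, and WT replicates 1 and 2.

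Bcl2 and Mpo had regions of the same kind. At Bcl2, chr1:106550660-106550868 was open in the 3 TetR-MYBTA libraries and in WT replicate 3, and chr1:106687789-106688156 in the 3 TetR-MYBTA libraries and TetR replicate 1. Near Mpo, chr11:87847921-87848212 was open in the 3 TetR-MYBTA libraries and in TetR replicate 1. None of these regions was called private.

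Ikzf1 and Bcl2 lie on stretches of chromosome where TetR-MYBTA had more peaks over many megabases. From 88 Mb to the end of chromosome 1, which holds Bcl2 and Cd34, the share of a library's peaks was 7.11 ± 0.0397% in TetR-MYBTA and 4.64 ± 0.0657% in the other 6 libraries (SD, n = 3 and 6), a ratio of 1.53. Below 44 Mb on chromosome 11, which holds Ikzf1 and Meis1, it was 2.59 ± 0.0811% and 1.67 ± 0.0373%, a ratio of 1.55. On chromosome 19, which holds Hhex, it was 1.90 ± 0.0156% and 2.47 ± 0.0488%, a ratio of 0.769. In these stretches 8.65% of genes on chromosome 1 and 7.21% on chromosome 11 were called higher, against 0.832% of all genes. On chromosome 19, 0.15% of genes were called higher and 20.1% lower, and Hhex was neither.

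The peaks within 5 Mb on either side of a window gave the local level. Around Ikzf1 the flanks had 323.7 ± 34.0 peaks in TetR-MYBTA and 224.2 ± 13.2 in the other 6 libraries (SD, n = 3 and 6), a ratio of 1.44 beside 1.42 in the window. At Bcl2 the ratio was 2.05 in the flanks and 1.28 in the window, and at Mpo, on the same chromosome as Ikzf1 but outside its stretch, 1.13 in the flanks and 1.41 in the window. Meis1 had 1.36 in the flanks and 0.963 in the window. Mecom, Ly6e, Lmo2 and Flt3 had lower ratios in the window than in the flanks: 0.492 and 0.797 at Mecom, 0.345 and 0.710 at Ly6e, 0.667 and 0.898 at Lmo2, and 0.541 and 0.733 at Flt3.

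With each window divided by its own flanks, a scaling chosen after the data were seen, Ikzf1 was no longer called. Nfe2, a leucine zipper factor of megakaryocytes and red cells, was then the 1 member called higher (2.86%, against 6.87% of all genes), and Lmo2, Mecom, Ly6e and Bcl2 were called lower (11.4%, against 6.05%). Among the 30 members outside the 3 stretches, 0 were called higher in the unscaled counts, against 0.488% of all genes outside them, a share at which a count of 0 in 30 says little.

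**Figure D5:**
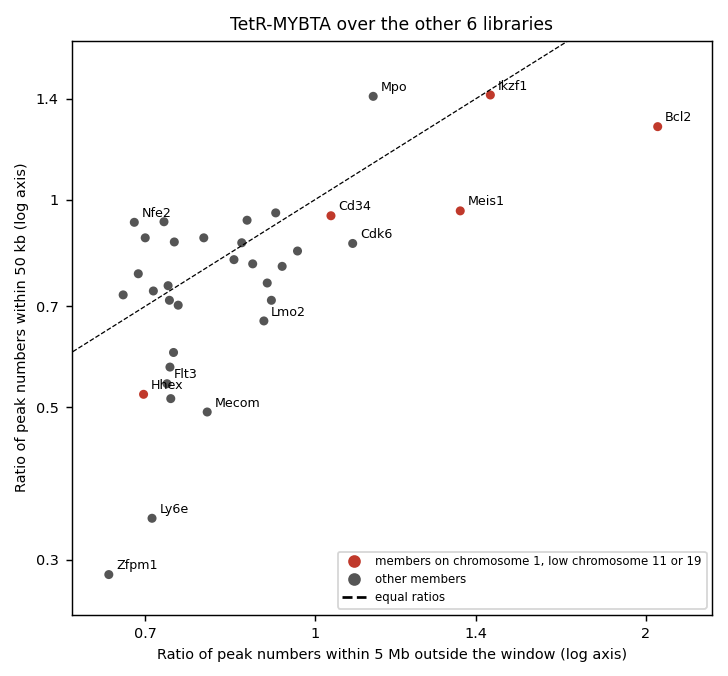
Ratio of mean peaks, TetR-MYBTA over the other 6 libraries, within 50 kb of each member (y axis) and in the 5 Mb on either side outside that window (x axis), both on log axes; red points are members on the stretches of chromosomes 1, 11 and 19 described in the text. Ikzf1 (1.44 in the flanks, 1.42 in the window) lies on the line of equal ratios, and Mecom and Ly6e lie below it.

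TetR-MYBTA was also set against TetR by itself, the construct without the MYB part. These 3 TetR libraries are part of the other 6, so the 2 comparisons share them. More peaks in all 3 libraries were found for 1 member, Ikzf1 (1.65% of all genes), and fewer for 10 (28.6%, against 25.1%): Lmo2, Mecom, Hhex, Gfi1, Klf1, Rag2, Flt3, Ly6e, Prtn3 and Cdk6. A 3 against 3 exact permutation test cannot go below 0.1, so no single gene can pass it. With lists of equal length there were 4 with more (11.4%, against 6.69% of all genes) and 4 with fewer (11.4%, against 12.8%). By limma Ikzf1 and Mpo were higher (2.24% of all genes) and Mecom, Flt3 and Ly6e lower (5.28% of all genes).

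Regions open in every TetR-MYBTA library and in no TetR library numbered 3 of 425 (0.706%, against 1.4% of all regions), and the reverse 23 (5.41%, against 4.43%). Against WT by itself, the numbers were 3 (0.706%, against 1.23%) and 15 (3.53%, against 2.79%). TetR-MYBTA had more peaks than WT for Ikzf1 and Bcl2 (5.71%, against 2.4%) and fewer for Lmo2, Mecom and Ly6e (8.57%, against 19.1%).

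The lines without MYBTA also differed from each other. TetR had more peaks than WT for 5 members (14.3%, against 9.13% of all genes), Gata2, Hhex, Gfi1, Gata3 and Cdk6, and fewer for 0 (against 3.15%); by limma 0 members passed in either direction (0.401% and 0.225% of all genes), and with lists of equal length 3 members had fewer (8.57%, against 7.6%). The 7 regions found in all TetR libraries alone lay 1 each in the windows of Tal1, Gata2, Mecom, Etv6, Spi1, Gata3 and Kit. At Gata2, for example, that region was at chr6:88153035-88153339, 40.6 kb from the gene, and at Kit it was inside the gene at chr5:75623577-75623808.

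Lists of further blood genes and MYB targets were read for comparison. Of 42 other blood genes with a peak in their window, 0 had more peaks in TetR-MYBTA, against 0.832% of all genes. Fewer were found for 5 (11.9%, against 11.7% of all genes), among them Tcf3 and Ly6a. The 50 kb window of Ly6a overlaps that of the member Ly6e, so Ly6a is not a separate case. Tcf3 (E2A), a helix-loop-helix partner, had 6, 7 and 5 peaks in TetR-MYBTA, 8, 10 and 8 in TetR, and 10, 9 and 11 in WT, with no overlap. Of 20 other genes described as MYB targets, 0 had more, against 0.832% of all genes. Fewer were found for 4 (20%, against 11.7% of all genes): Cdk1, Slc1a5, Ccne1 and Ada. At a share of 0.832%, a count of 0 in either list says little. Cdk1, the kinase of mitotic entry, had 7, 5 and 5 peaks in TetR-MYBTA, 12, 13 and 12 in TetR, and 11, 12 and 10 in WT. Gene ends were open in all 9 libraries for 15 of these 20 genes and for 6 of the 43 other blood genes. Of all genes, 44.2% had a gene-end peak in all 9.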

How the data were processed

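ATAC-seq peak lists of 9 libraries were used. Per the labels' protocols, lysed cells were treated with Nextera Tn5. Bowtie2, HOMER 4.11, Picard, Trim Galore 0.6.10, FastQC and deepTools 3.5.5 are listed in the submitters' processing notes, with mm10 as the build. A read shift for the Tn5 offset is not mentioned. HOMER called peaks in each library separately, with no control library, at a false discovery rate of 0.001 and a threshold of 11 or 12 tags, per the file headers. The deposited score is 1 in every row, so it gives no peak height, and starts and ends are positions as the authors deposited them. No interval is given for single peaks, whose counts were not used.

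Libraries were grouped by their titles. Peaks were counted within 1 kb of either gene end and within 50 kb of each of 21883 RefSeq protein-coding genes, and peaks overlapping by at least 1 bp were merged into regions. A call means that no TetR-MYBTA library overlapped the other 6. Exact permutation tests ran over all 84 choices of 3 libraries, with Benjamini-Hochberg adjustment over 20439 genes. limma 3.58.1 (R 4.3.3), with a pseudocount of 0.5 peaks per 10000, was an alternative. Others were equal list length and the upper 50% of each list, both cut by row order, which was taken as rank. Windows of 10 and 100 kb, 2.5 kb for gene ends, merging within 200 bp, and leaving out each library were also used. The counting and both tests were tested on simulated data. Scripts ran in Python 3.11.15 with scipy 1.17.1, pandas 2.3.3, matplotlib 3.10.9 and numpy 2.4.6.

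The members, lists, chromosome stretches and tests were chosen with earlier results of these data known. Values in every library are given for members with a call, a private or missing region or a gene-end change, and for Myc, Kit, Gata2, Spi1, Runx1, Tal1, Bcl2, Mpo and Meis1. Of the other lists, at most 4 genes in each direction are named, by the largest difference of means; some of these are not reported here.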

Additional observations from a re-analysis of the deposited data

How the results depend on the processing

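Of 167 values recomputed under other settings, 113 stayed within 1.5 times the reported count or within the spread of the share, and 54 did not. The limits are the length of the lists, presence without height, and 3 libraries a line. With lists of equal length, 0 members lost a gene-end peak, 1 region was private and 1 missing, 4 members had more and 4 fewer peaks than TetR, and 3 had fewer in TetR than WT. In the upper 50% of each list these were 0, 2 and 1, then 2 and 4, and 2 had more and 2 fewer in TetR than WT, with a share ratio of 0.9901. The matching shares of all genes or regions were 0.996%, 1.05% and 1.56%, then 2.5% and 18.2%, then 7.51% and 5.32%. Per 10000 peaks, 3 members had more in TetR-MYBTA than the other 6 (8.57%, against 4.47% of all genes). Against TetR 3 had more (8.57%, against 10.1%), and 4 had fewer in TetR than WT (11.4%, against 11.4%). Within 10 kb the share ratio was 0.9166 and 2 members had more in TetR than WT (5.88%, against 6.46% of all genes). Within 100 kb 6 had fewer in TetR-MYBTA than the other 6 (17.1%, against 18.3%). Outside the 3 chromosome stretches 0 members had more, against the other 6 or against TetR (0), with a share ratio of 0.9009. Of all genes outside them, 0.488% and 1.18% had more. With a peak in at least 2 of 3 libraries there were 4 private regions (0.941%, against 2.27% of all regions) and 17 missing ones. With WT left unused, a looser rule chosen after seeing the data, there were 13 private ones. The shares of all regions were not computed for the 17 and the 13, so neither count says anything about the members. By limma 3 members had more than the other 6, 2 more and 3 fewer than TetR, and 0 more in TetR than WT.

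Leaving out 1 library, the ranges were 1 to 2 members with more and 3 to 6 with fewer peaks (6 without TetR-MYBTA replicate 2 or WT replicate 1), 0 to 0 gained and 1 to 1 lost gene ends, 0 to 3 private and 7 to 10 missing regions, and a share ratio of 0.956 to 0.9724. Against TetR they were 1 to 3 more and 11 to 15 fewer, and for TetR against WT 6 to 9 more and 0 to 1 fewer. Leaving out a library cannot undo a call or a missing region, since the rule asks for all libraries, so these ranges show only what is added. The shares of all genes were not computed with a library left out, so the gene counts say nothing about the members. For missing regions, the 10 without WT replicate 1 were 2.4%, against 1.59% of all regions. The 7 without WT replicate 2 were 1.66%, against 1.43%. Of Ikzf1, Lmo2, Mecom and Ly6e, Mecom was not called with lists of equal length, Lmo2 was not within 10 kb, and none of the 4 was in the upper 50% of each list.

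Same-numbered libraries did not deviate together (correlations of -0.0407 to 0.0706). With 3 libraries a line, this does not show that the numbers carry no pairing, and the labels do not say. With the replicate block only same-numbered libraries were compared, which is a looser rule. Against TetR 2 members then had more and 16 fewer peaks, and 8 had more and 3 fewer in TetR against WT. The shares of all genes under this rule were not computed, so these counts say nothing about the members. limma with the block called the same 6 members against the other 6 libraries, and 0 against TetR. Over all 20439 genes, limma against TetR called 36 higher and 137 lower with the block, and 458 and 1079 without it.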
